A study of Mus musculus with 768 samples.

Results

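Interferon-stimulated effector genes are the genes whose products carry out the antiviral and antimicrobial response to interferon. The set described here holds 44 genes, taken by symbol from the 51734 distinct features of the count tables: antiviral effectors, nucleic acid sensors and their partners, guanylate-binding proteins and immunity-related GTPases. All 44 symbols were found. They were followed in single endothelial cells of mice from 3 sorting gates, read with Smart-seq2, a plate method that copies whole transcripts. TU_HEV cells were CD45-negative, CD31-positive and MECA79-positive and came from PyMT tumours, mammary tumours that arise in mice carrying the polyoma middle T oncogene. LN_HEV cells were sorted with the same gate from lymph node. TU_EC cells were CD45-negative, CD31-positive and MECA79-negative and came from PyMT tumours. MECA79 is an antibody against the sulfated glycans of high endothelial venules (HEVs), the vessels through which lymphocytes leave the blood. The sources used here state no strain, age, treatment or number of animals. Each group was therefore taken as 1 sample, and no p-value is given.

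Interferons reach a cell through surface receptors that switch on JAK kinases and STAT transcription factors. Type I and type III interferons drive genes mainly through the interferon-stimulated response element (ISRE), bound by STAT and IRF proteins together or by IRF proteins alone. Interferon gamma, made by T cells and natural killer cells, acts mainly through the gamma-activated site (GAS), and through IRF1 on the ISRE. Guanylate-binding proteins and immunity-related GTPases are classical interferon gamma targets in mouse cells, while IFIT, OAS and Mx genes are classical type I targets, and many genes answer to both.

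Filters on depth, genes and endothelial markers kept 98 TU_HEV cells (50 of plate pool3 and 48 of pool4). They kept 63 LN_HEV cells of pool1 and 79 of pool2, and 68, 81, 82 and 72 TU_EC cells of poolA, poolB, poolC and poolD. Median totals per cell were 1431390 counts in TU_HEV, 1056160 in LN_HEV and 625611 in TU_EC. In pool1, 11 more libraries were left out, as the rule that defines the set asks. Each of them held, gene by gene, over 99% of the counts of at least 1 kept TU_HEV library, while the other 70 pool1 libraries of at least 50000 counts held at most 71.2%. Ribosomal RNA features took 8.09% of counts in TU_HEV, 13.5% in LN_HEV and 25.3% in TU_EC, and Glycam1 alone took 6.48% in LN_HEV. The 5 pan-endothelial markers summed to 6765 CPM (counts scaled to one common library size) in TU_HEV, 5370 CPM in LN_HEV and 5804 CPM in TU_EC. The 5 HEV markers were all counted in both MECA79-positive groups, with Chst4 and Fut7 at 0 in TU_EC, and summed to 3528 CPM in TU_HEV, 70491 CPM in LN_HEV and 293.4 CPM in TU_EC. The 6 leukocyte markers summed to 3.38 CPM in TU_HEV (Ptprc, Cd3e, Lyz2 and Cd52 at 0), 11.3 CPM in LN_HEV (none at 0) and 2.04 CPM in TU_EC (5 at 0). T cell markers were at 0 in TU_HEV and TU_EC and summed to 2.26 CPM in LN_HEV. B cell markers summed to 1.49 CPM in TU_HEV, 1.57 CPM in LN_HEV and 0.0225 CPM in TU_EC, and myeloid markers to 11.3 CPM in TU_HEV, 7.09 CPM in LN_HEV and 4.59 CPM in TU_EC. Epithelial and tumour markers were at 0 in TU_HEV and LN_HEV and at 0.243 CPM in TU_EC. Mural and fibroblast markers summed to 2.19 CPM in TU_HEV, 2.02 CPM in LN_HEV and 10.8 CPM in TU_EC, and lymphatic markers to 34.3 CPM in TU_HEV, 13.0 CPM in LN_HEV and 391 CPM in TU_EC. The part of these marker levels in the results was not tested, and counts at other scalings and depths stand beside the comparisons. TU_EC libraries sit in another file and another series of library numbers, so that difference and the gate cannot be told apart.

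The start of a gene is where these response elements usually lie, so the sequences around the starts of 6 members are shown here. They were picked, after the values were seen, to show the layouts the motifs take: 2 guanylate-binding proteins, 2 immunity-related GTPases, and an IFIT gene and Isg15. Each runs from 250 bases before to 50 bases after a transcript start, 5′ to 3′, in RefSeq on GRCm38.p6. Capitals mark a match to the ISRE core GAAANNGAAA on either strand (its other strand reads TTTCNNTTTC) or to the GAS TTCNNNGAA, which reads the same on both strands. The Gbp2 window lies at chr3:142620413-142620712 on the plus strand, and that of Gbp7 at chr3:142530086-142530385 on the plus strand. Igtp lies at chr11:58199306-58199605 on the plus strand, and Tgtp1 at chr11:48992197-48992496 on the minus strand. Ifit1 lies at chr19:34640639-34640938 on the plus strand, and Isg15 at chr4:156200769-156201068 on the minus strand.
Gbp2: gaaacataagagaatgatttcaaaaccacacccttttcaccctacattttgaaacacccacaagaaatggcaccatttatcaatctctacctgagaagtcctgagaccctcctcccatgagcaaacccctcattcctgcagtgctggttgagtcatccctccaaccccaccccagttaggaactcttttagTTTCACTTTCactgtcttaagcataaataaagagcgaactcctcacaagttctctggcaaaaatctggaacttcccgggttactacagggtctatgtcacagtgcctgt
Gbp7: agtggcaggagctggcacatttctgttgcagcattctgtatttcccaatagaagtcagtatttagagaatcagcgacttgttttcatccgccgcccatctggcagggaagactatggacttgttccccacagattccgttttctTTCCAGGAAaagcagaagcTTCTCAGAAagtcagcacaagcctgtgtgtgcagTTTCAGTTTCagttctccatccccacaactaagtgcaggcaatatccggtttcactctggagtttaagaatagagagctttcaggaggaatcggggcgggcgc
Igtp: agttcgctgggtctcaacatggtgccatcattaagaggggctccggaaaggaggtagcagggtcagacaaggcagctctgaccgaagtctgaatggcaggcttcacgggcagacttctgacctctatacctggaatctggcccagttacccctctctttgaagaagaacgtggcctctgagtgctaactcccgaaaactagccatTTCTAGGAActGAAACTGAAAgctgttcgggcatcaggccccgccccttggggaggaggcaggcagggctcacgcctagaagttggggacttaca
Tgtp1: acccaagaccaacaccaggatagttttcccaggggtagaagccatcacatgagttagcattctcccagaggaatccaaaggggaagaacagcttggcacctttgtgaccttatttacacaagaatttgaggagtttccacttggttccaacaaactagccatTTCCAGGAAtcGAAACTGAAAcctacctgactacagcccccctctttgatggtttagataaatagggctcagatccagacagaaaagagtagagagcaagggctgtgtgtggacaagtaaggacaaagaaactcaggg
Ifit1: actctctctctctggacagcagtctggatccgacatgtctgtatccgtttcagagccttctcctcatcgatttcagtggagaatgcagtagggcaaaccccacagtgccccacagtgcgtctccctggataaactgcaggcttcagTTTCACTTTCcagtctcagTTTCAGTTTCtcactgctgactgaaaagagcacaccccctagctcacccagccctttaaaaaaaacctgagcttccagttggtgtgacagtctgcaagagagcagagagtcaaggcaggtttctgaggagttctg
Isg15: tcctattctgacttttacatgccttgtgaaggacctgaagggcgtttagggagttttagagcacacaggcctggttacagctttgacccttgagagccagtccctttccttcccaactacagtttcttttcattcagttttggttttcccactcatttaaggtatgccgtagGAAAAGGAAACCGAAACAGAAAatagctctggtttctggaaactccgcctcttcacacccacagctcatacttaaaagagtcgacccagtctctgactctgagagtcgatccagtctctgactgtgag

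Igtp and Tgtp1 hold the same layout, a GAS followed after 2 bases by an ISRE core, which begins 34 bases before the start in Igtp and 77 bases before it in Tgtp1. Gbp7 holds 2 GAS matches ahead of 1 ISRE core, and Gbp2 a single ISRE core 59 bases before the start. Ifit1 holds 2 ISRE cores, of which the nearer begins 85 bases before the start, with no GAS. In Isg15, 3 ISRE cores overlap in 1 run from 78 bases before the start. The promoter table matched 32 of the 44 members. An ISRE core was found in 19 of these 32 (59.4%), against 3.99% of all 27025 genes of the table. A GAS match was found in 11 of 32 (34.4%), against 9.55% of all genes, and both in 8 of 32 (25%), against 0.540%. In Ifitm3 a GAS match overlaps an ISRE core by 3 bases. Among the GTPase members, 7 of 8 matched held an ISRE core and 4 of 8 a GAS. These matches are a description of letters in a window and not of binding. Of the 18 members followed with an ISRE core, 14 were at least 2-fold higher in TU_HEV than in LN_HEV, against 25.6% of all features. Of the 13 without one, 10 were, among them Oasl2, Ifi44, Xaf1 and Cmpk2.

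The level of a gene in a group is its counts summed over cells, in CPM of the counts of that group. In such sums, fewer cells with a transcript and less of it per cell cannot be told apart, so shares of cells are given further on. A gene was followed further where the mean of the 3 group levels was at least 1 CPM, which 43 of the 44 members and 13215 features in all passed. Oas3, an oligoadenylate synthetase, did not pass, with 1 count in TU_HEV, 0 in LN_HEV and 70 in TU_EC. Ratios carry exact 95% Poisson intervals, which cover counting error only, and PCR copies make them too narrow. The spread between plates is therefore given beside them, although plates are not replicates of a condition.

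TU_HEV held the most of these transcripts. The 44 genes summed to 1.24% of counts in TU_HEV, 0.343% in LN_HEV and 0.370% in TU_EC. Of the 43 members followed, 34 were at least 2-fold higher in TU_HEV than in LN_HEV, against 25.6% of all features. In 31 of them every TU_HEV plate also lay above every LN_HEV plate, against 19.5% of all features. The only member at least 2-fold lower was Mx1, against 13% of features, and its plates overlapped (2-fold lower with plates apart were 9.76% of features). The median ratio of the members was 4.08-fold (2.03 on the log2 scale, 1.38 to 2.89 over the 4 pairs of plates), beside a median of 0.29 on the log2 scale over all features. With the 11 pool1 libraries kept, 31 members were at least 2-fold higher, against 21.4% of all features, and the median was 1.45. Samd9l, Parp14 and Parp9 had dropped out. With totals taken without ribosomal RNA and mitochondrial genes, 32 members were at least 2-fold higher, against 23.5% of all features.

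Against TU_EC, 35 of 43 members were at least 2-fold higher in TU_HEV, against 23.5% of all features, and in 30 of them the plates lay apart, against 16% of features. Rsad2 was the only one at least 2-fold lower, against 11.2% of features, and its plates overlapped (2-fold lower with plates apart were 5.99% of features). The median was 1.44 on the log2 scale (1.03 to 2.04 over the 8 pairs of plates), beside 0.39 over all features. This count depended on scaling: with size factors, which bring the median of all features to -0.05, 22 members reached 2-fold, against 14.2% of all features, and the members' median was 1.00. With totals without ribosomal RNA and mitochondrial genes 28 members reached it, against 16.4% of all features, with a median of 1.14. After every cell was thinned to 100000 counts, 33 did, against 26.1% of all features. Both comparisons use the same TU_HEV cells.

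LN_HEV and TU_EC lay closer to each other. Of 43 members, 6 were at least 2-fold higher in LN_HEV, against 19.8% of all features, and 14 were at least 2-fold lower, against 19.4%. The plates lay apart in 2 of the higher ones, Ifi35 and Dhx58, against 14% of features, and in 10 of the lower ones, against 13.5%. The median was -0.31 on the log2 scale (-1.29 to 0.47 over pairs of plates), beside 0.12 over all features. Its sign was not stable. The median was 0.03 with the 11 libraries kept, with 9 members higher and 8 lower, against 20.1% and 16.5% of features. It was 0.07 without pool1 and -1.19 without pool2. With size factors 4 members were higher and 17 lower, against 17.2% and 21.6% of features.

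**Figure D1:**
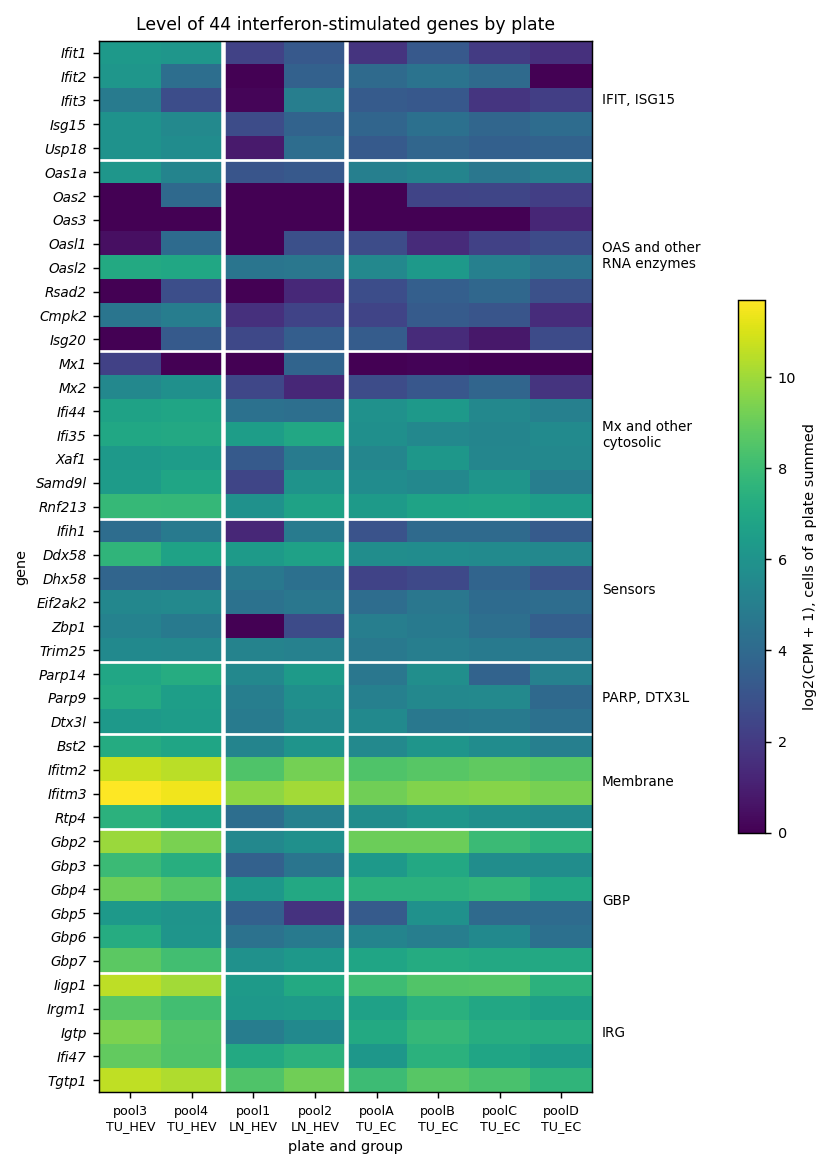
Level of each of the 44 genes in each plate as log2(CPM + 1) of the cells summed, with plates in columns (TU_HEV, LN_HEV, TU_EC) and genes in rows by role. The 2 TU_HEV plates are the brightest in most rows, above all in the GBP and IRG rows, and Ifitm3 is the highest row in every plate.

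Per kilobase of exon, the scale on which genes can be compared, Ifitm3 and Ifitm2 had the highest levels in every group. Ifitm3 had 4435 CPM per kb in TU_HEV, 1439 in LN_HEV and 983 in TU_EC. In TU_HEV they were followed by Tgtp1 with 430.3 CPM per kb, Gbp2 with 316.5, Igtp with 247.7, Iigp1 with 211.7 and Ifi47 with 164.1. In LN_HEV, Tgtp1 again came next with 149.7 CPM per kb, while Gbp2, with 20.6, was at rank 7 and Igtp, with 19.4, at rank 9. In TU_EC, Gbp2 came next with 148.9 CPM per kb, ahead of Tgtp1 with 94.6. At the low end, Oas2, Oas3, Rsad2 and Mx1 had counts in at most 1 cell of TU_HEV, so their ratios rest on single cells.

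Guanylate-binding proteins are large GTPases that assemble on the membranes of intracellular microbes and of the vacuoles around them. All 6 members were at least 2-fold higher in TU_HEV than in LN_HEV, with a median of 2.92 on the log2 scale, and all 6 than in TU_EC, with the plates apart in both comparisons. Over all features, 25.6% were at least 2-fold higher in TU_HEV than in LN_HEV and 23.5% than in TU_EC. With the plates apart as well, 19.5% and 16% were. These shares stand beside the counts of every group of genes given here. In GRCm38, Gbp2, Gbp3, Gbp5 and Gbp7 lie on chromosome 3 and Gbp4 and Gbp6 on chromosome 5. Gbp2 had 980.3 and 651 CPM in the TU_HEV plates, 42.9 and 58.0 CPM in the LN_HEV plates, and 526, 529, 246.99 and 188.6 CPM in the TU_EC plates. Both TU_HEV plates lay above all others, and both LN_HEV plates below all others. The ratio of TU_HEV to LN_HEV was 15.4 (15.0 to 15.7; 11.2 to 22.9 over pairs of plates), and 5.33 with the 11 libraries kept. That to TU_EC was 2.13 (2.11 to 2.14; 1.23 to 5.20 over pairs of plates). Gbp3 and Gbp5 were also more than 10-fold higher in TU_HEV than in LN_HEV, by 11.3-fold and 12.3-fold (5.91-fold and 10.4-fold with the 11 libraries kept). Gbp6 had 150.996 and 67.4 CPM in the TU_HEV plates, 20.0 and 27.3 CPM in the LN_HEV plates, and 37.5, 31.3, 45.4 and 18.7 CPM in the TU_EC plates. Its groups did not overlap in either comparison with TU_HEV, and the ratios were 4.29 to LN_HEV (2.80 with the 11 libraries kept) and 3.10 to TU_EC. Without pool3 its log2 ratios were 1.47 to LN_HEV and 1.0031 to TU_EC. Gbp4 and Gbp7 were 4.27-fold and 5.09-fold higher in TU_HEV than in LN_HEV. Against TU_EC the 6 ratios lay between 2.13 and 3.10. With size factors all 6 stayed above 1, but only Gbp5 (2.03) and Gbp6 (2.30) reached 2-fold. Of the runs of 75 bases in Gbp6 transcripts, 67.3% also occur in neighbouring genes such as Gbp10, so its own counts are uncertain.

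Immunity-related GTPases act with them, loading onto vacuoles that hold parasites or bacteria, and the members of the M subfamily restrain the others on the cell's own membranes. All 5 members were at least 2-fold higher in TU_HEV than in either other group with the plates apart and medians of 2.11 and 1.82 on the log2 scale. Of these, 4 genes, Tgtp1, Igtp, Irgm1 and Ifi47, lie on chromosome 11. Tgtp1, an effector of the family, had 1528 and 1262 CPM in the TU_HEV plates, 352.003 and 568.5 CPM in the LN_HEV plates, and 255.1, 406, 325.3 and 202.2 CPM in the TU_EC plates. The TU_HEV plates lay above the rest, and the LN_HEV and TU_EC plates overlapped. Its ratio was 2.87 to LN_HEV (2.85 to 2.90) and 4.55 to TU_EC (4.51 to 4.59). Tgtp1 shares 74.6% of its runs of 75 bases with the neighbouring copy Tgtp2, which was itself 4.82-fold and 2.65-fold higher in TU_HEV than in LN_HEV and TU_EC, so counts may be split between the copies. Igtp, a regulator of the M subfamily, had 674 and 363.9 CPM in the TU_HEV plates, 29.9 and 45.6 CPM in the LN_HEV plates, and 135.4, 222.5, 156.6 and 151.1 CPM in the TU_EC plates. The 3 groups did not overlap. The ratio to LN_HEV was 12.8 (12.5 to 13.2; 5.09 with the 11 libraries kept) and to TU_EC 2.97 (2.93 to 3.01). Iigp1, an effector that binds the parasite vacuole, had 1232.5 CPM in TU_HEV, 114.6 CPM in LN_HEV and 304.4 CPM in TU_EC. It stood 10.8-fold higher in TU_HEV than in LN_HEV (4.47-fold with the 11 libraries kept). Irgm1, the other regulator, was 4.31-fold higher (2.82-fold with them) and Ifi47 2.49-fold higher in TU_HEV than in LN_HEV. Against TU_EC, Iigp1, Irgm1 and Ifi47 were 4.05-fold, 2.64-fold and 3.54-fold higher, and with size factors Irgm1 fell short of 2-fold, at 1.95.

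Between LN_HEV and TU_EC the GTPase genes did not move alike. Gbp2, Gbp3, Gbp5 and Igtp reached 0.14, 0.22, 0.22 and 0.23 of their TU_EC level in LN_HEV, and 0.40, 0.42, 0.26 and 0.58 with the 11 libraries kept. The plates lay apart for Gbp2, Gbp3 and Igtp and overlapped for Gbp5. Iigp1 had an LN_HEV to TU_EC ratio of 0.38 with the plates apart, and 0.91 with the 11 libraries kept. Tgtp1 and Ifi47 had LN_HEV to TU_EC ratios of 1.58 and 1.42, with plates that overlapped. Outside the GTPases, Oas1a, Rsad2, Ifi44, Xaf1, Zbp1 and Rtp4 were at least 2-fold lower in LN_HEV than in TU_EC with the plates apart, at ratios of 0.26, 0.098, 0.35, 0.41, 0.14 and 0.48. With the 11 libraries kept, Ifi44, Xaf1 and Rtp4 were no longer 2-fold lower.

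Products of the IFIT and ISG15 genes bind foreign RNA or tag proteins during infection. Of 5 members, 4 were at least 2-fold higher in TU_HEV than in LN_HEV and all 5 than in TU_EC, against 25.6% and 23.5% of all features. The plates lay apart in all 4 and in 3 of the 5, and the medians were 2.43 and 1.73 on the log2 scale. Ifit1, which binds RNA whose cap lacks the host's methyl mark, had 78.7 and 70.3 CPM in the TU_HEV plates, 3.87 and 8.52 CPM in the LN_HEV plates, and 2.42, 8.73, 3.11 and 2.09 CPM in the TU_EC plates. Both TU_HEV plates lay far above the other 6, which overlapped. The ratio was 11.2 to LN_HEV (10.5 to 12.0; 5.63 with the 11 libraries kept) and 17.4 to TU_EC (16.2 to 18.6). In LN_HEV, 1 cell held 76.0% of the Ifit1 counts. The log2 ratio to LN_HEV, 3.48, was 4.26 without pool2, and that to TU_EC, 4.12, was 4.85 without poolB. Isg15, a ubiquitin-like modifier, and Usp18, the protease that removes it and dampens the type I receptor, were 5.41-fold and 5.40-fold higher in TU_HEV than in LN_HEV (6.15-fold and 2.74-fold with the 11 libraries kept) and 3.31-fold and 4.91-fold higher than in TU_EC. Ifit2 was 6.10-fold higher in TU_HEV than in LN_HEV, where all its counts came from 1 cell. Ifit3 had 15.8 CPM in TU_HEV and 18.5 CPM in LN_HEV, a ratio of 0.86 whose direction turned with the weight given to cells (1.33 with equal weight per cell), and 41.1% of its runs of 75 bases are shared with Ifit3b.

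That LN_HEV cell, of pool2, had the most counts of its group for 18 members and held 88.7% of the LN_HEV counts of the IFIT and ISG15 genes, but 5.89% of those of the GTPases. It had counts of 38 members, where the next LN_HEV cell had 22 and the median cell 12. Its total was 1512886 counts, its leukocyte markers were at 0, and its Glycam1 level of 63809 CPM was near that of its group. It was chosen for these high counts, so the lower LN_HEV levels of those 18 members without it follow from the choice. The leading cells of TU_HEV and TU_EC were not left out in the same way. Without this LN_HEV cell, LN_HEV had 1.61 CPM of Ifit1, 0.319 CPM of Usp18, 0.0425 CPM of Ifit3 and no count of Ifit2, Oasl1 or Rsad2. The ratio of TU_HEV to LN_HEV was then 46.0 for Ifit1, 174.1 for Usp18, 26.7 for Zbp1, 12.8 for Cmpk2 and 13.1 for Isg15. The members at least 2-fold higher in TU_HEV than in LN_HEV then numbered 36, against 25.7% of all features, with a median of 2.21 on the log2 scale. In LN_HEV against TU_EC, 4 were then higher and 22 lower, against 19.8% and 19.6% of all features, with a median of -1.003. All 5 IFIT and ISG15 genes were then at least 2-fold higher in TU_HEV than in LN_HEV, with a median of 7.44 on the log2 scale. In LN_HEV against TU_EC all 5 were then at least 2-fold lower, with a median of -5.15, against 1 higher and 1 lower with the cell. A gene at 0 was set to 3 counts in these medians.

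The enzymes of nucleotide and RNA metabolism include the oligoadenylate synthetases, whose product activates RNase L. Of the 7 members followed, 6 were at least 2-fold higher in TU_HEV than in LN_HEV and 4 than in TU_EC, with medians of 2.46 and 1.20 on the log2 scale. The plates lay apart in only 3 of the 6 and 2 of the 4. Oas2, counted in 1 TU_HEV cell, is among both the 6 and the 4, and Rsad2, also in 1 TU_HEV cell, is among the 6. Against TU_EC the number at least 2-fold higher was 2 with equal weight per cell, when thinned and with size factors, with medians of 0.11, 0.32 and 0.76. Oasl2, a synthetase with ubiquitin-like domains, had 134.9 and 122.9 CPM in the TU_HEV plates, 22.1 and 24.0 CPM in the LN_HEV plates, and 42.5, 79.8, 33.1 and 20.5 CPM in the TU_EC plates. TU_HEV lay above both other groups, which overlapped. Its ratio was 5.52 to LN_HEV (5.32 to 5.73; 3.59 with the 11 libraries kept) and 2.84 to TU_EC (2.77 to 2.91). Cmpk2, a mitochondrial nucleotide kinase, had 22.4 and 30.4 CPM in the TU_HEV plates, 2.09 and 4.07 CPM in the LN_HEV plates, and 4.21, 9.22, 7.39 and 1.83 CPM in the TU_EC plates, again with TU_HEV above all. It was 8.24-fold higher in TU_HEV than in LN_HEV and 4.55-fold higher than in TU_EC, and its log2 ratio to LN_HEV of 3.04 was 3.69 without pool2. Its genomic neighbour Rsad2, which makes a chain-terminating nucleotide, had the opposite order against TU_EC. Rsad2 stood at 3.30 CPM in TU_HEV, from 1 cell, 0.932 CPM in LN_HEV, from 1 cell, and 9.49 CPM in TU_EC, from 13 cells. Oas2 was counted in 1 TU_HEV cell, in pool4 at 14.7 CPM, in no LN_HEV cell, and in 3 TU_EC cells. Set against 3 counts in LN_HEV, that 1 cell gave a bound of at least 392-fold, which was 29.3-fold with every cell thinned to 100000 counts. The ratio of Oas2 to TU_EC was 2.59, and 0.97 with equal weight per cell. Without pool4, Oas2 had no TU_HEV count. Oas1a was 6.39-fold higher in TU_HEV than in LN_HEV (3.52-fold with the 11 libraries kept) and had a ratio of 1.65 to TU_EC, with plates that overlapped. Isg20, an exonuclease, had ratios of 0.62 to LN_HEV and 1.24 to TU_EC, with plates that overlapped, the second turning to 0.91 with size factors. Oasl1 had ratios of 2.51 and 2.29, from 4 TU_HEV cells, and that to TU_EC was 1.08 with equal weight per cell, 1.25 when thinned and 1.70 with size factors.

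Mx proteins are dynamin-like GTPases that block virus replication, and the other members of this group act in the cytosol by several routes. Of 7 members, 5 were at least 2-fold higher in TU_HEV than in LN_HEV and 6 than in TU_EC, against 25.6% and 23.5% of all features. The plates lay apart in 5 of them in each comparison. Among the 6, the plates of Mx1 overlapped, and its ratio rests on 1 TU_HEV cell. With size factors 3 of the 7 reached 2-fold against TU_EC, beside 14.2% of all features, with a median of 0.74 on the log2 scale. With totals without ribosomal RNA and mitochondrial genes 3 did, beside 16.4%, with a median of 0.87. With equal weight per cell and when thinned, 5 did, beside 25.9% and 26.1%. Mx2 had 43.2 and 58.2 CPM in the TU_HEV plates, 4.69 and 1.47 CPM in the LN_HEV plates, and 5.60, 8.01, 13.1 and 2.38 CPM in the TU_EC plates. TU_HEV stood above all, and the other 6 plates overlapped. Its ratio was 18.5 to LN_HEV (16.7 to 20.5; 7.23 with the 11 libraries kept) and 6.85 to TU_EC (6.49 to 7.22). On the log2 scale the ratio to LN_HEV was 4.21, with 5.13 without pool1 and 3.46 without pool2. That to TU_EC was 2.78, with 1.897 at equal weight per cell. Mx1 could not be read in the same way, since 1 TU_HEV cell, 5 LN_HEV cells and 1 TU_EC cell had a count of it. It had 3.80 and 0 CPM in the TU_HEV plates, 0 and 12.5 CPM in the LN_HEV plates, and 0, 0.0655, 0 and 0 CPM in the TU_EC plates. The ratio of 0.226 to LN_HEV (0.196 to 0.260) thus rests on pool2, without which LN_HEV had no count. Rnf213, a very large ubiquitin ligase, had 229.5 and 217.8 CPM in the TU_HEV plates, 59.3 and 104.1 CPM in the LN_HEV plates, and 80.9, 110.2, 112.5 and 87.7 CPM in the TU_EC plates. Its ratios were 2.60 to LN_HEV (2.55 to 2.66) and 2.25 to TU_EC (2.21 to 2.29), with TU_HEV apart from both. Ifi44, Xaf1 and Samd9l were 5.83-fold, 4.08-fold and 2.64-fold higher in TU_HEV than in LN_HEV, and 2.66-fold, 2.45-fold and 1.86-fold with the 11 libraries kept. Against TU_EC their ratios were 2.03, 1.66 and 2.12. Ifi35 differed from these: it had 128.1 CPM in TU_HEV, 111.5 CPM in LN_HEV and 45.6 CPM in TU_EC. Its ratio of 1.15 between TU_HEV and LN_HEV turned to 0.94 with size factors, and both HEV groups were above TU_EC in every plate, by 2.81-fold and 2.44-fold.

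**Figure D2:**
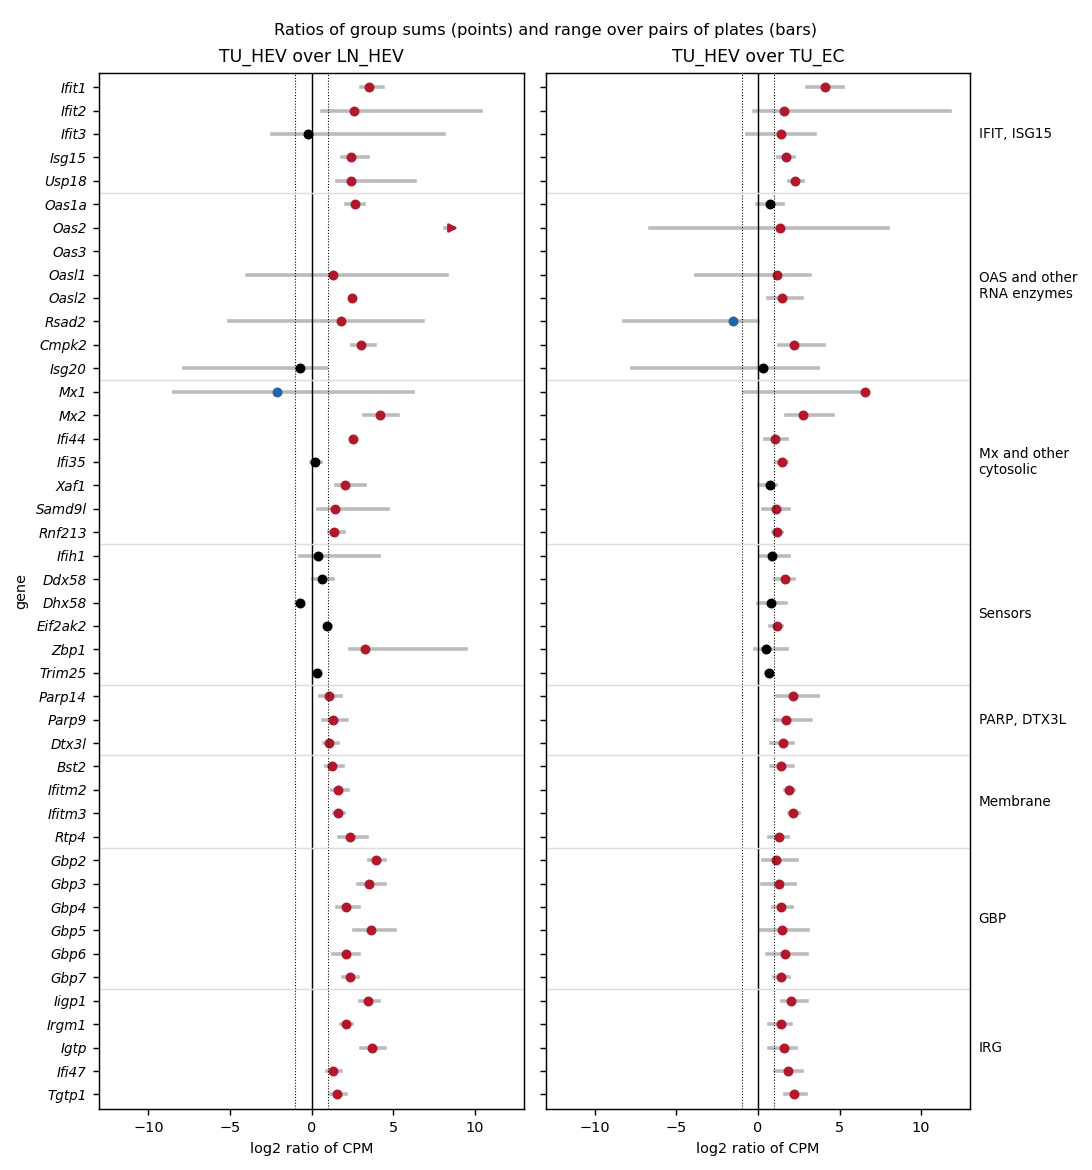
Log2 ratio of CPM of TU_HEV over LN_HEV (left) and over TU_EC (right) for the 43 members followed, with genes in rows by role. Points are ratios of group sums (red at 2-fold higher or more, blue at 2-fold lower or more, black between; the triangle is a bound), grey bars run from the lowest to the highest pair of plates, with a plate at 0 set to 3 counts, and dotted lines mark 2-fold. Most points lie right of the dotted line, while the sensors in the left panel lie between the dotted lines except Zbp1, and the long bars belong to genes counted in few cells.

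Sensors of nucleic acid and their partners had the lowest median of the groups of genes in both comparisons, 0.51 and 0.85 on the log2 scale. At least 2-fold higher in TU_HEV were 1 of 6 against LN_HEV and 2 of 6 against TU_EC. Over all features 25.6% and 23.5% were, so nothing is read from these counts. Against TU_EC the nucleotide and RNA enzymes had lower medians at equal weight per cell (0.11 against 0.83) and when thinned (0.32 against 0.94). Ddx58, a helicase that detects viral RNA, had 201.2 and 107.03 CPM in the TU_HEV plates, 82.5 and 102.4 CPM in the LN_HEV plates, and 51.6, 50.6, 46.9 and 42.6 CPM in the TU_EC plates. The ratio was 1.58 to LN_HEV (1.54 to 1.61) and 3.10 to TU_EC (3.03 to 3.17), and LN_HEV lay above TU_EC in every plate with a ratio of 1.96. Zbp1, a sensor of Z-form nucleic acid that can start cell death, had 35.7 and 26.5 CPM in the TU_HEV plates, 0 and 5.28 CPM in the LN_HEV plates, and 30.6, 27.3, 18.5 and 10.5 CPM in the TU_EC plates. TU_HEV and TU_EC overlapped, and LN_HEV lay below both. Its ratio to LN_HEV was 9.81 (8.89 to 10.8; 5.13 with the 11 libraries kept) and to TU_EC 1.4003 (1.34 to 1.46). In LN_HEV it was counted in 3 cells, all in pool2, and without pool1 the log2 ratio of 3.29 was 2.53. Dhx58, a helicase without signalling domains that tunes the other sensors, was lower in both TU_HEV plates than in both LN_HEV plates, at 13.1 and 12.5 CPM in the TU_HEV plates, against 24.3 and 19.1 CPM in the LN_HEV plates, a ratio of 0.60 (0.75 without the single LN_HEV cell). Ifih1, Eif2ak2 and Trim25 had TU_HEV to LN_HEV ratios of 1.29, 1.94 and 1.26, and ratios to TU_EC of 1.83, 2.30 and 1.61.

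The ADP-ribosylation genes Parp14, Parp9 and Dtx3l, the last being the ubiquitin ligase that pairs with Parp9, all passed 2-fold in both comparisons, with medians of 1.07 against LN_HEV and 1.70 against TU_EC on the log2 scale. Parp14 had 119.03 and 151.5 CPM in the TU_HEV plates, 42.8 and 82.0 CPM in the LN_HEV plates, and 24.0, 53.5, 12.0 and 33.9 CPM in the TU_EC plates. TU_HEV stood above both groups, and its ratio was 2.08 to LN_HEV (2.03 to 2.13) and 4.40 to TU_EC (4.28 to 4.52). Without pool2 its log2 ratio to LN_HEV, 1.06, was 1.68. Parp9 had 138.7 and 91.4 CPM in the TU_HEV plates, 30.6 and 55.4 CPM in the LN_HEV plates, and 33.1, 43.0, 43.8 and 14.8 CPM in the TU_EC plates, and its ratios were 2.48 and 3.25. The TU_HEV plates of Parp9 were likewise above all others. Parp9 and Dtx3l overlap head to head in the genome and share 6.63% of the 75-base runs of Parp9. With size factors, only Parp9 of the 3 kept a ratio of 2 to LN_HEV, while all 3 kept it to TU_EC. With the 11 libraries kept, Parp14 and Parp9 fell short of 2-fold against LN_HEV, and 1 of the 3 reached it. The number was also 1 with totals without ribosomal RNA and mitochondrial genes. It was 2 with equal weight per cell and when thinned.

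Of the genes grouped here as membrane restriction factors, Ifitm2, Ifitm3 and Bst2 keep viruses from entering or leaving the cell. With Rtp4, all 4 members of the group were at least 2-fold higher in TU_HEV than in either other group, with the plates apart. With size factors 3 of the 4 reached 2-fold against LN_HEV and 2 against TU_EC, beside 19.8% and 14.2% of all features. With totals without ribosomal RNA and mitochondrial genes 3 did against TU_EC, beside 16.4%. Ifitm3, which blocks fusion in endosomes, had 3292 and 2781 CPM in the TU_HEV plates, 833 and 1074 CPM in the LN_HEV plates, and 572, 699, 749 and 625.5 CPM in the TU_EC plates. The 3 groups did not overlap, in the order TU_HEV, LN_HEV, TU_EC. The ratio was 3.08 to LN_HEV (3.06 to 3.10) and 4.51 to TU_EC (4.48 to 4.54). Ifitm2, next to it in the genome, had ratios of 3.03 and 3.78. Bst2, which tethers budding virus to the cell surface, had ratios of 2.42 and 2.63. Rtp4, a chaperone of surface receptors, had 179.7 and 109.6 CPM in the TU_HEV plates, 17.4 and 34.1 CPM in the LN_HEV plates, and 52.6, 69.1, 56.2 and 49.5 CPM in the TU_EC plates. The groups of Rtp4 did not overlap, with LN_HEV the lowest. It was 5.15-fold higher in TU_HEV than in LN_HEV (3.55-fold with the 11 libraries kept) and 2.45-fold higher than in TU_EC, and without pool2 its log2 ratio to LN_HEV, 2.36, was 3.01.

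The share of cells with a count, after each cell was thinned to 100000 counts, gives the same genes on another scale. Thinning makes the totals equal but leaves the shares of ribosomal RNA and Glycam1 in them as they were. All 98 TU_HEV cells were deep enough for this, and 1 LN_HEV cell and 3 TU_EC cells were not. The exact binomial 95% intervals cover the counting of cells only, not differences between animals, and cells are not replicates. In 23 of 44 members the interval of TU_HEV lay above that of LN_HEV, against 5.58% of all features, and in 26 it lay above that of TU_EC, against 7.73%. In no member did it lie below either, against 7.61% of features for LN_HEV and 3.62% for TU_EC. Iigp1 was found in 82.7% of TU_HEV cells (73.7 to 89.6), 38.3% of LN_HEV cells (30.2 to 46.9) and 38.3% of TU_EC cells (32.8 to 44.1). Gbp2 was found in 67.3% of TU_HEV cells (57.1 to 76.5), 21.3% of LN_HEV cells (14.8 to 29.0) and 32.3% of TU_EC cells (27.1 to 37.9). Tgtp1 had near equal shares in both HEV groups, 81.6% of TU_HEV cells (72.5 to 88.7) and 79.4% of LN_HEV cells (71.8 to 85.8), against 32.3% of TU_EC cells (27.1 to 37.9). Per cell, the median level of Tgtp1 before thinning was 875 CPM in TU_HEV and 334.8 CPM in LN_HEV. Ifi47 likewise had 68.4% in TU_HEV and 60.3% in LN_HEV, against 33.0% in TU_EC. The IFIT, OAS and Mx genes were found in fewer cells: Ifit1 in 23.5% of TU_HEV cells, 1.42% of LN_HEV cells and 3.00% of TU_EC cells, and Mx2 in 22.4%, 2.84% and 4.33% of the same groups.

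**Figure D3:**
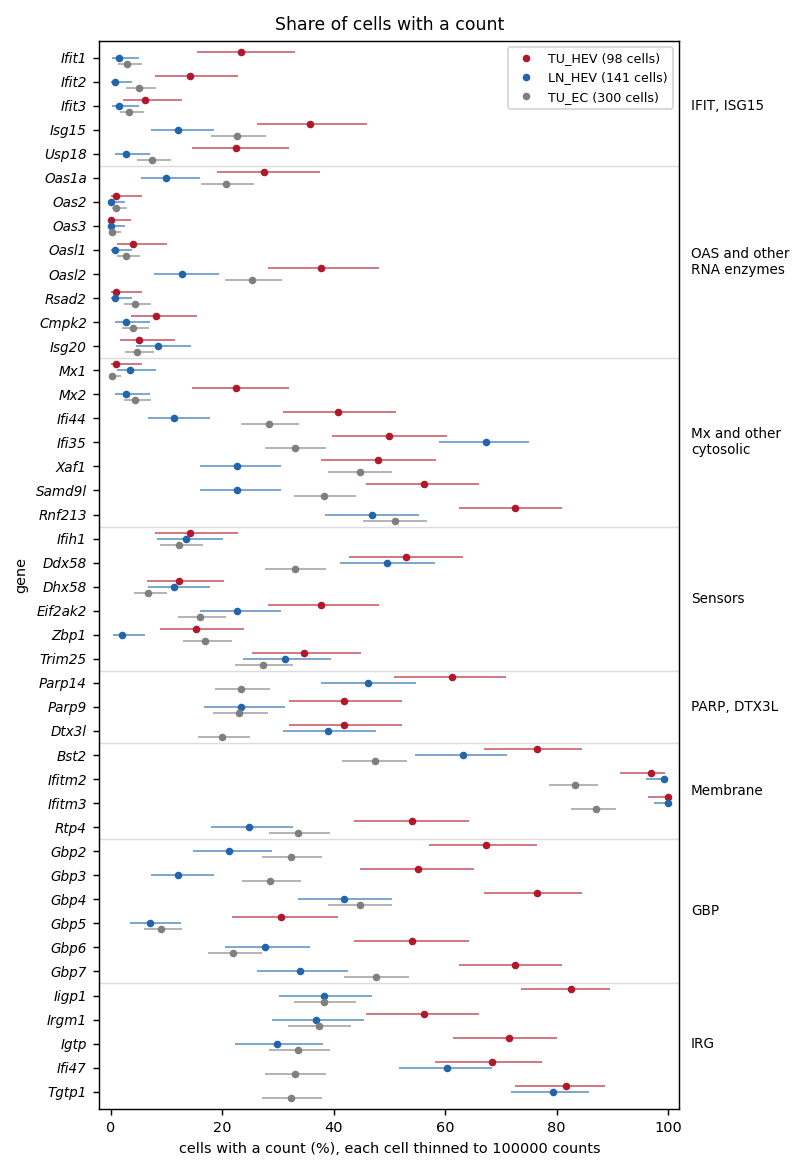
Percent of cells with a count of each gene after thinning to 100000 counts, with exact binomial 95% intervals, for TU_HEV (red), LN_HEV (blue) and TU_EC (grey), genes in rows by role. Red points lie to the right for all GBP and IRG genes except that Tgtp1 and Ifi47 are close in TU_HEV and LN_HEV, and the IFIT and OAS rows stay under 40% in every group.

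The GTPases varied widely from cell to cell within TU_HEV. The 11 GTPase genes summed to a median of 446 counts per thinned cell in TU_HEV, 91 in LN_HEV and 45 in TU_EC, with upper quartiles of 731 in TU_HEV and 139.75 in TU_EC and lower quartiles of 52 in LN_HEV and 11 in TU_EC. Of the 98 TU_HEV cells, 89 (90.8%, 83.3 to 95.7) lay above the LN_HEV median. Only 3 LN_HEV cells (2.13%, 0.441 to 6.09) lay above the TU_HEV median, as did 32 TU_EC cells (10.7%, 7.41 to 14.7). The shape of the 3 groups differed. The top 10 TU_HEV cells held 28.8% of the GTPase counts of their group, the top 15 LN_HEV cells 34.9% and the top 30 TU_EC cells 59.2%, which are near equal shares of the cells. No GTPase count was found in 1 TU_HEV cell, 1 LN_HEV cell and 44 TU_EC cells. The TU_EC counts were thus held by fewer of the cells than the TU_HEV counts. The 31 other members without Ifitm2 and Ifitm3 summed to a median of 192.5 counts in TU_HEV, 65 in LN_HEV and 55 in TU_EC. The IFIT and ISG15 genes were at 0 in 44.9% of TU_HEV cells, 85.8% of LN_HEV cells and 71.0% of TU_EC cells.

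**Figure D4:**
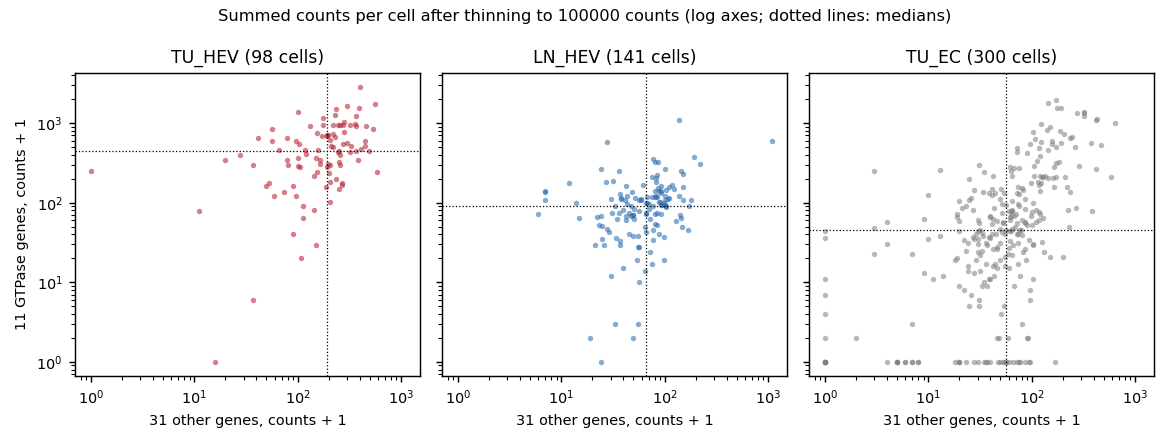
Counts of the 11 GTPase genes (vertical, log axis) against counts of 31 other members, without Ifitm2 and Ifitm3 (horizontal, log axis), in each cell thinned to 100000 counts, for TU_HEV, LN_HEV and TU_EC. Dotted lines mark medians, and 1 was added to every count. The TU_HEV cells lie around a GTPase median of 446, while TU_EC cells run from 0 to 1979 counts, under the 2848 of the highest TU_HEV cell.

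Plates of a group differed too. All 11 GTPases were higher in pool3 than in pool4, with sums of 6959 and 4939 CPM, but only Gbp6 by 2-fold. Over all features 48.9% were higher in pool3, and 16.6% by at least 2-fold. Among the other 32 members followed, 18 were higher in pool3. In LN_HEV, 37 of 43 members were higher in pool2 than in pool1, against 70% of all features, and 13 of them by at least 2-fold, against 27.4%, with sums of 3988 and 2635 CPM, and pool2 holds the single cell described above.

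Across TU_HEV cells, the GTPase genes varied together more than the rest. Among members counted in at least 30% of cells, Spearman coefficients of thinned counts between 2 GTPases had a median of 0.32 in pool3 (50 cells) and 0.27 in pool4 (48 cells). Pairs of a GTPase and another member had medians of 0.13 and 0.09, and pairs of other members 0.05 and 0.08. The highest pairs, as the mean of both plates, were Ifitm2 with Ifitm3 at 0.69, Gbp5 with Gbp6 at 0.53, Irgm1 with Igtp at 0.52 and Gbp7 with Igtp at 0.47. Within a plate the cells share library preparation and, after thinning, depth, and sparse counts keep coefficients low. Members differed in the share of cells with a count. The part of this in the contrast between GTPases and other members was not tested. GTPase pairs in TU_EC had medians of 0.32 to 0.50 over the 4 plates, and those in LN_HEV 0.13 and 0.14. The GTPase sum of a TU_HEV cell also went with Cxcl9, an interferon gamma-induced chemokine, with coefficients of 0.58 in pool3 and 0.57 in pool4. Other genes of that list were less alike in the 2 plates, such as Cxcl10 with 0.59 and 0.27, Psmb8 with 0.47 and 0.24, Tap1 with 0.38 and 0.12 and Tap2 with 0.40 and -0.05. With the summed counts of the 31 other members without Ifitm2 and Ifitm3, the GTPase sum had coefficients of 0.44 in pool3 and 0.48 in pool4. In TU_EC these ran from 0.47 to 0.66 over the 4 plates. The GTPase sum's coefficients with the cell's total counts before thinning were 0.35 in pool3 and 0.10 in pool4.

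**Figure D5:**
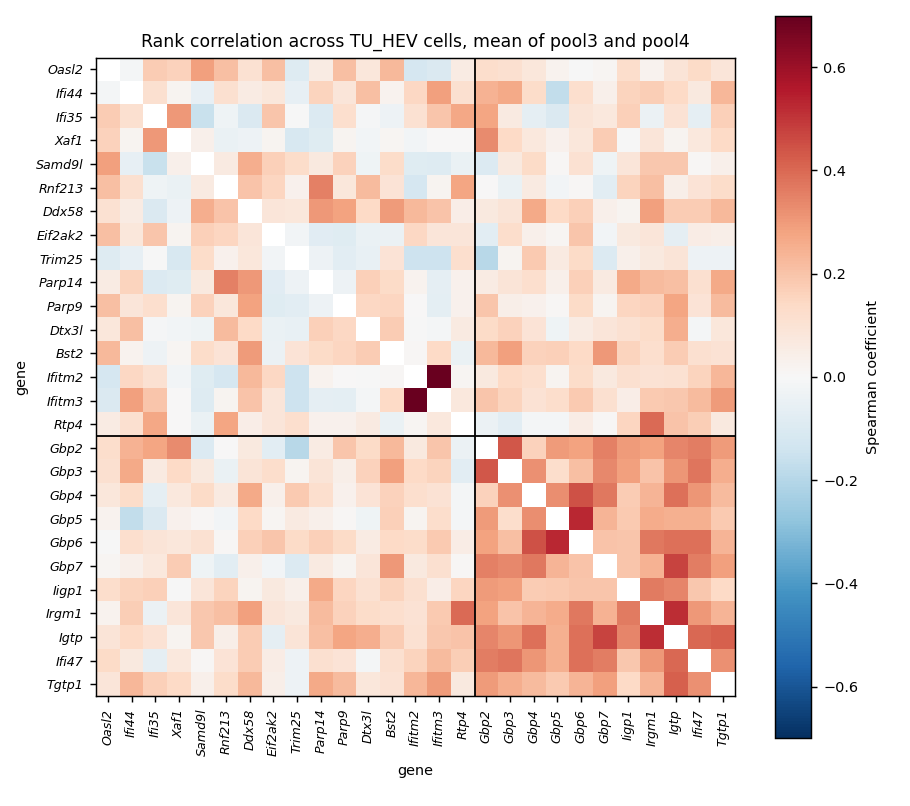
Spearman coefficients between 27 members counted in at least 30% of cells of both TU_HEV plates, as the mean of pool3 and pool4, with red for positive and blue for negative; black lines set off the GTPases. The lower right block of 11 GTPases is the most evenly red, and Ifitm2 with Ifitm3, at 0.69, is the highest pair outside it.

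Other genes of the pathway were followed from lists. None of the 8 interferon genes listed (Ifnb1, Ifna2, Ifna4, Ifne, Ifnk, Ifng, Ifnl2 and Ifnl3) had a count in any group, so each lay under the floors of 0.0205 CPM in TU_HEV, 0.0210 CPM in LN_HEV and 0.0135 CPM in TU_EC. Of 8 receptors and kinases followed, 2 were at least 2-fold higher in TU_HEV than in LN_HEV and 4 than in TU_EC. Over all features the shares were 25.6% and 23.5%, and they stand beside the counts of each list that follows. Jak2, a kinase of the interferon gamma receptor, had 127.3 CPM in TU_HEV, 23.3 CPM in LN_HEV and 30.6 CPM in TU_EC. Ifngr1, the ligand-binding chain of that receptor, had 599.9 CPM in TU_HEV, 313.7 CPM in LN_HEV and 169.4 CPM in TU_EC. Ifnar1 and Ifnar2, the type I receptor chains, had ratios of 1.39 and 0.73 to LN_HEV. Ifnlr1, which confers response to type III interferon, had no count in any group.

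Among 12 transcription factors, 1, Irf5, was at least 2-fold lower in TU_HEV than in TU_EC, against 11.2% of all features. At least 2-fold higher were 7 in TU_HEV against LN_HEV and 3 against TU_EC, beside 25.6% and 23.5% of all features. Irf1 was among them in both comparisons, with 806 CPM in TU_HEV, 122.9 CPM in LN_HEV and 214.6 CPM in TU_EC. Irf8 had 113.03 CPM in TU_HEV, 18.6 CPM in LN_HEV and 110.4 CPM in TU_EC. Of 5 feedback genes, 3 were at least 2-fold higher than in LN_HEV and 4 than in TU_EC, among them Socs1, an inhibitor of JAK kinases, at 34.3 CPM in TU_HEV, 4.03 CPM in LN_HEV and 10.5 CPM in TU_EC. Of 6 adaptors and DNA sensing genes, 3 and 5 passed in the comparisons with LN_HEV and TU_EC. Of 10 genes of interferon gamma output, 5 passed against LN_HEV and 8 against TU_EC. Cxcl9 had 483 CPM in TU_HEV, 14.1 CPM in LN_HEV and 391 CPM in TU_EC. B2m, which completes MHC class I molecules, had 6391 CPM in TU_HEV, 6392 CPM in LN_HEV and 2708 CPM in TU_EC. Close relatives of the members that are not in the set passed in 9 of 9 followed in both comparisons, such as Gbp9 with 499.8 CPM in TU_HEV, 147.7 CPM in LN_HEV and 144.1 CPM in TU_EC, and Irgm2 with 111.03 CPM in TU_HEV, 23.2 CPM in LN_HEV and 46.1 CPM in TU_EC. Nothing particular to any of these lists is read from its count.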

How the data were processed

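The authors deposited whole-number counts of reads per gene and cell. The submitters' processing notes list the build mm10 (GRCm38), the aligner STAR 2.4.1b, the read counter package Subread 1.4.6-p2 and FastQC 0.11.4; annotation, strand and multi-mapping settings are not stated there. Per the labels, tumours were dissociated, CD45-bearing and EpCAM-bearing cells were removed with beads, and single cells were sorted into plates of 96 wells and amplified with 23 PCR cycles.

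Repeated symbols among the 51826 features were summed, leaving 51734, of which 47624 were found in GENCODE mouse release 21, the source of positions and exon lengths. Cells needed at least 50000 counts, 1000 genes, at most 30% mitochondrial counts and at least 2 of 5 pan-endothelial genes at 10 CPM. Cells with 3 or more of the 6 genes of a leukocyte, epithelial or mural list at 10 CPM were left out. Cells were sorted singly, and no doublet caller was used. The 11 pool1 libraries were left out by the rule. Retained cells ranged from 276667 to 4002554 counts in TU_HEV, 96741 to 1678516 in LN_HEV and 58737 to 2216188 in TU_EC.

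Counts were summed per group and set against each other as ratios, each with an exact 95% Poisson interval. A group at 0 was set to 3 counts, and shares have exact Clopper-Pearson intervals. The ratio code was tested on simulated data. Reads carry no molecular identifiers, so intervals cover counting error only. Cells were thinned with seed 1. Python 3.11.15, numpy 2.4.6, pandas 2.3.3, scipy 1.17.1 and matplotlib 3.10.9 were used. Per role, the member with the highest mean CPM and those with the largest change in each comparison with TU_HEV are given by plate. The members, lists and rules were chosen with earlier results of these data known. Lists of other genes were ligands, receptors and kinases, transcription factors, feedback, adaptors and DNA sensing, relatives, interferon gamma output and cell type markers. Alternatives were the libraries, scaling, weight of cells, depth, cell filters, filters on low values and each plate left out. The values of 1 pathway gene are not reported here.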

Additional observations from a re-analysis of the deposited data

How the results depend on the processing

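No test was run, and no paired analysis was possible because no label names an animal and each plate holds cells of a single group. Library and well numbers that recur between groups name wells of separate plates, not shared animals. Alternatives were set against the main counts and medians of the 3 comparisons and the shares of cells, and include leaving out the single cell of pool2. Counts were called the same within 1.5 times, medians within the spread between pairs of plates, and shares within their binomial intervals. By these rules 84 stayed the same, 5 moved further and 2 turned direction. With size factors, 22 members were at least 2-fold higher in TU_HEV than in TU_EC, against 14.2% of all features, with a median of 1.00 on the log2 scale. For LN_HEV against TU_EC, the median turned to 0.0306 with the 11 pool1 libraries kept and lay at -1.003 without the single cell of pool2 (chosen after seeing the data). Leaving out plates, it ran from -1.19 (without pool2) to 0.0719 (without pool1), and the count of members at least 2-fold higher from 1 to 8. The share of all features at least 2-fold higher ran from 16% (without pool2) to 24.7% (without pool1). For TU_HEV against LN_HEV the counts ran from 30 to 37 over plates left out, beside shares of 24.1% to 37.5% of all features. The highest count and the highest share were both without pool2. For TU_HEV against TU_EC the counts ran from 32 to 36, beside shares of 23.3% to 26.7%. Mx1 and Oas2, counted in few cells, turned direction. The log2 ratio of Mx1 in TU_HEV against LN_HEV ran from -7.65 to 5.03 over plates left out. That of Oas2 in TU_HEV against TU_EC ran from -6.10 to 2.21, and was -0.0373 with equal weight per cell. The cause was not tested. Oas2, Oas3, Rsad2 and Mx1 were counted in at most 1 TU_HEV cell, and shared sequence limits Tgtp1, Gbp6, Oas1a, Ifitm2 and Ifit3.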
